A study of Homo sapiens with 2 samples.

Results

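Acetylation of histone H3 at lysine 27 (H3K27ac) was described along the distal long arm of chromosome 6 in LOUCY, a human leukaemia line of the T-cell lineage (T-ALL, T-cell acute lymphoblastic leukaemia). The peaks of this stretch were taken by position from the authors' list of H3K27ac peaks (hg19): all peaks on chromosome 6 that start at or after position 109124954. They numbered 828 of 52203 peaks, or 1.59% of the list on 2.04% of the genome's length, and they ran over 61.99 Mb from 6q21 to the end of 6q27. Both libraries of the study came from LOUCY cells with no treatment named: 1 after precipitation with an H3K27ac antibody, and 1 of input DNA, which is chromatin sheared but not precipitated. Of 62626946 ChIP tags, 54357332 were kept by the peak caller, and of 74212738 input tags, 71932640. With 1 library each there was no replicate, so every comparison below is a description, and peaks are not replicates of a condition.

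H3K27ac is laid down by the acetyltransferases EP300 and CREBBP on nucleosomes beside active promoters and enhancers. Broad peaks and dense runs of peaks are typical of genes that define a cell's identity. Distal 6q holds several genes of T-cell and leukaemia biology. FYN, a Src-family kinase of T-cell receptor signalling, and HDAC2, a histone deacetylase, lie in 6q21. MYB, a transcription factor that T-cell progenitors need, TNFAIP3, which restrains NF-kB signalling, and IFNGR1, a chain of the interferon gamma receptor, lie in 6q23.3. THEMIS, a T-cell receptor signalling protein of thymocytes, lies in 6q22.33. These are textbook band positions. No full hg19 annotation was used, so peaks are given by coordinate and band and are not assigned to genes, with 1 exception.

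That exception is BCLAF1, which encodes a nuclear protein of transcription and RNA processing in 6q23.3, the sole gene of distal 6q in the small set of gene positions at hand. The build of that set is not labelled, and its match to the hg19 peaks was checked. In it BCLAF1 spans chr6:136577765-136610984 on the minus strand. A peak of 3374 bp, chr6:136609276-136612649, covered its start, with 1709 bp inside the gene and 1665 bp upstream of it. Its fold over input was 10.5, the 17th highest of the 828 peaks and rank 2134 of all 52203. No other peak lay within the gene. The next peak towards the centromere, chr6:136570807-136572095, lay beyond the gene's 3′ end and had a fold of 4.02. The 250 bases before the start are printed because they lie under this peak, the only place in distal 6q where sequence and peak could be joined by gene. They come from RefSeq (GRCh38.p14), 5′ to 3′ on the gene's strand, with the letters GGGCGG (a GC box) in capitals.
BCLAF1 promoter: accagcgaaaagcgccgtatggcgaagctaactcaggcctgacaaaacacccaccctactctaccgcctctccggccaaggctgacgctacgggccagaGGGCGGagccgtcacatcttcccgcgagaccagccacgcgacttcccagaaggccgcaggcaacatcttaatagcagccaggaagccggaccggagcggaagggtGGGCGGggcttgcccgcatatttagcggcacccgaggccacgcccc
This stretch had 64.8% G and C and 23 CpG dinucleotides, against medians of 58.0% and 11 over 35116 RefSeq promoters of the same length. The GC box was found in 2 places, both on the gene's strand, and in 42.6% of all promoters on either strand. The CCAAT box (its letters as its name) was not in this window on either strand, and 32% of all promoters held it. The TATA box, searched as TATAAA, was not there either, and 10.7% of all promoters held it. The same was so for CCGGAA, a longer form of ETS factor sites, which 14.5% held. The shorter core of such sites, GGAA, does stand in the printed stretch and was not counted.

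The position was chosen by the fold and p-value of the peaks. Together these give an implied input level, the control pileup at which a peak's fold has its Poisson p-value, and the position marks a step down in that level. Fold, p-value, level and the ChIP pileup worked out from them are therefore given as description and carry no test. The last peak before the position, chr6:109114659-109123928, had a fold of 9.85 and a level of 11.6. The first peak after it, chr6:109124954-109127814, had a fold of 2.55 and a level of 5.46, and 1025 bp lay between them. Among the nearest 20 peaks on either side, the level ran from 4.20 to 11.6 (median 7.11) before and from 4.13 to 6.41 (median 4.44) after. The ranges overlapped, so the step shows in the medians and not in each peak.

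The low level held along the whole stretch. In 12 consecutive windows of 5 Mb, the median level lay between 4.33 and 4.83, and in the 19 windows of chromosome 6 before the position that avoid the centromere between 5.72 and 7.74. The ranges did not overlap, but the position was chosen by values that give this level. Chromosome X, whose level was also low, had window medians of 4.39 to 4.97 over 23 windows. Those of the other autosomes ran from 4.33 to 9.76 over 451 windows, with a lower quartile of 5.97, so low windows occurred there too. The median over all 828 peaks was 4.67 (95% interval of the median 4.59 to 4.72), against 6.80 before the position and a floor of 4.11 that the caller sets. The highest level in distal 6q was 8.72, at chr6:135582709-135609101, a peak of 26393 bp, and the level is approximate for broad peaks. Across the 828 peaks level and fold had a Spearman correlation of 0.814, against 0.451 before the position and 0.808 on chromosome X. The level in distal 6q thus also rose with a peak's own fold.

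**Figure D1:**
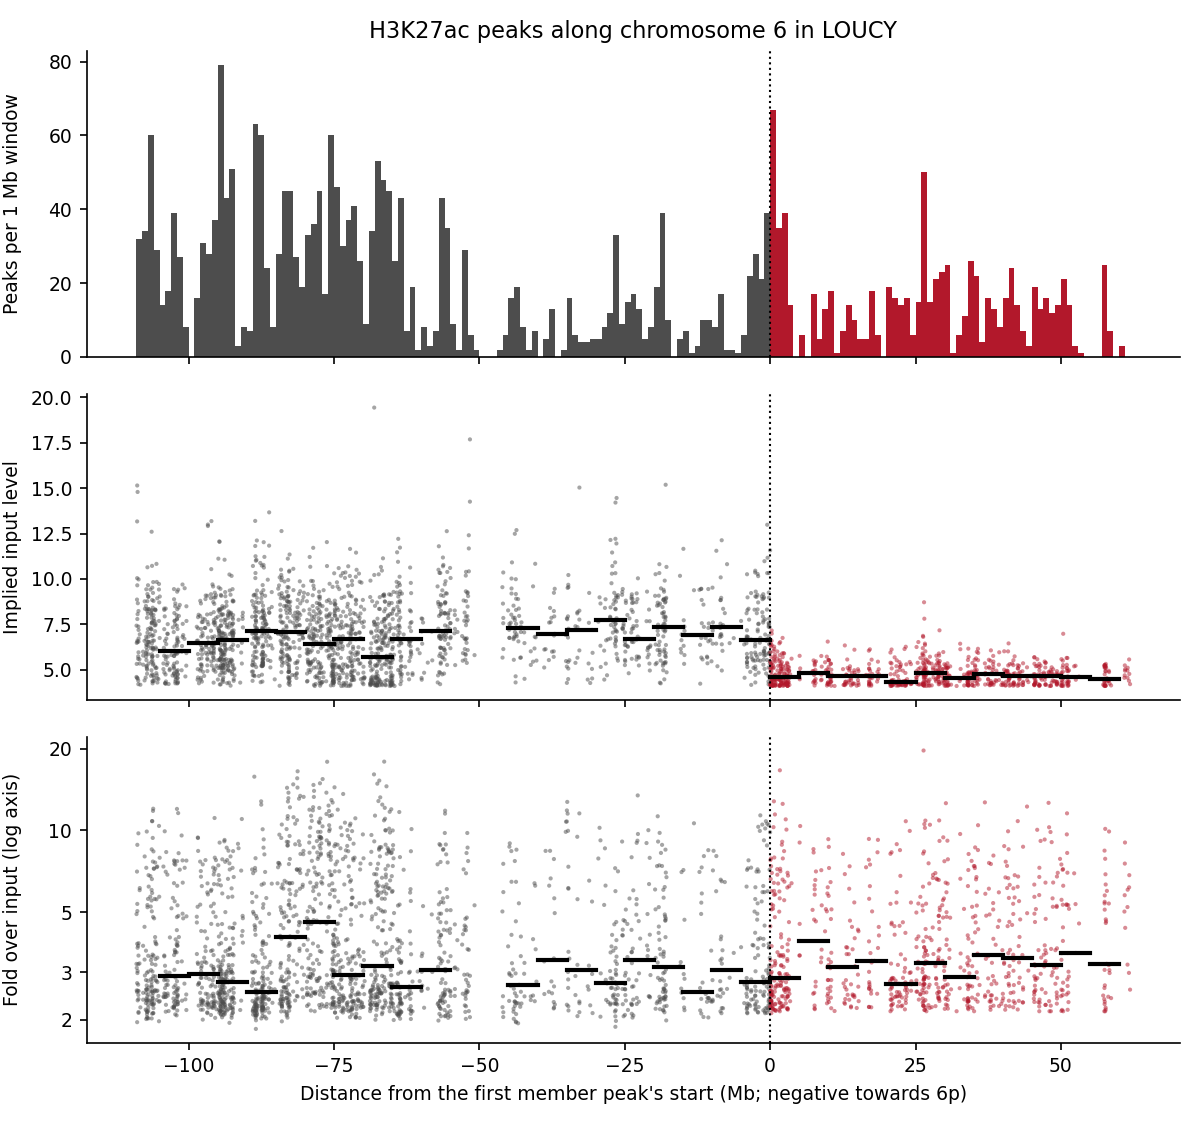
Peaks along chromosome 6 by distance from the first peak of distal 6q (dotted line): peaks per 1 Mb window (top), implied input level (middle) and fold over input on a log axis (bottom). Each dot is 1 peak, black bars are medians of 5 Mb windows with 20 or more peaks, and distal 6q is red; the level medians lie between 4.33 and 4.83 in red and between 5.72 and 7.74 in grey, while fold medians overlap.

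Counting all called peaks, distal 6q carried fewer per Mb than chromosome 6 before it, but more than its own neighbour on the long arm. Its density was 13.4 peaks per Mb, against 19.9 for the 2174 peaks before the position, a ratio of 0.670 (95% Poisson interval 0.618 to 0.727, counting error only). The short arm (6p) had 27.6 peaks per Mb and proximal 6q 10.2, so against proximal 6q alone the ratio was 1.31 (1.17 to 1.47). This order depended on the cut. At a fold of at least 6 it was 2.53 per Mb against 1.97 in proximal 6q, and at 10 or more 0.403 against 0.374. Among peaks of at least the median pileup of all peaks it turned, at 4.94 against 5.26. Fold and pileup both come from values the rule used. The other autosomes had 17.6 and chromosome X 9.72. Peaks covered 2.12 Mb, or 3.42% of the stretch, against 2.45% in proximal 6q, 8.38% in 6p and 5.02% in the other autosomes. Over 5 Mb windows the density ran from 6.4 to 31.0 per Mb in distal 6q and from 4.0 to 38.2 before it, and these ranges overlap widely.

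The density followed the bands. The 29.8 Mb of Giemsa-negative bands, the pale and gene-rich bands, held 541 of the 828 peaks at 18.2 per Mb, and the 3 classes of dark bands held 8.76 to 9.08 per Mb. Pale bands had 14.1 per Mb in proximal 6q, 37.1 in 6p and 23.9 in the other autosomes. The darkest class had 9.08 per Mb in distal 6q and 8.99 in the other autosomes. The lightest dark class of distal 6q (gpos50) had 8.76 against 17.7, and the next (gpos75) 8.94 against 13.2. The shortfall against the other autosomes thus lay in the pale bands and in these dark classes, and not in the darkest. Given its mix of bands, distal 6q had 0.719 times the peaks that the densities of the other autosomes would give, proximal 6q 0.636 times and 6p 1.5 times.

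The richest bands were 6q21 from the position on, with 161 peaks at 29.4 per Mb, and 6q23.3, with 105 peaks at 27.6 per Mb. Together these hold FYN, HDAC2, MYB, TNFAIP3 and BCLAF1. In 6q23.3 peaks covered 11.2% of the band, and in 6q21 8.06%. Next came 6q22.32 with 22.0 peaks per Mb and 6q24.2, the band of HIVEP2, a zinc finger protein, with 20.4. At the other end, 6q26 held 4 peaks in 3.5 Mb (1.14 per Mb), and 6q22.2, a band of 0.2 Mb, held none. The pale band 6q27 had 6.65 peaks per Mb, less than any dark band but 6q22.1 (5.95) and 6q26.

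**Figure D2:**
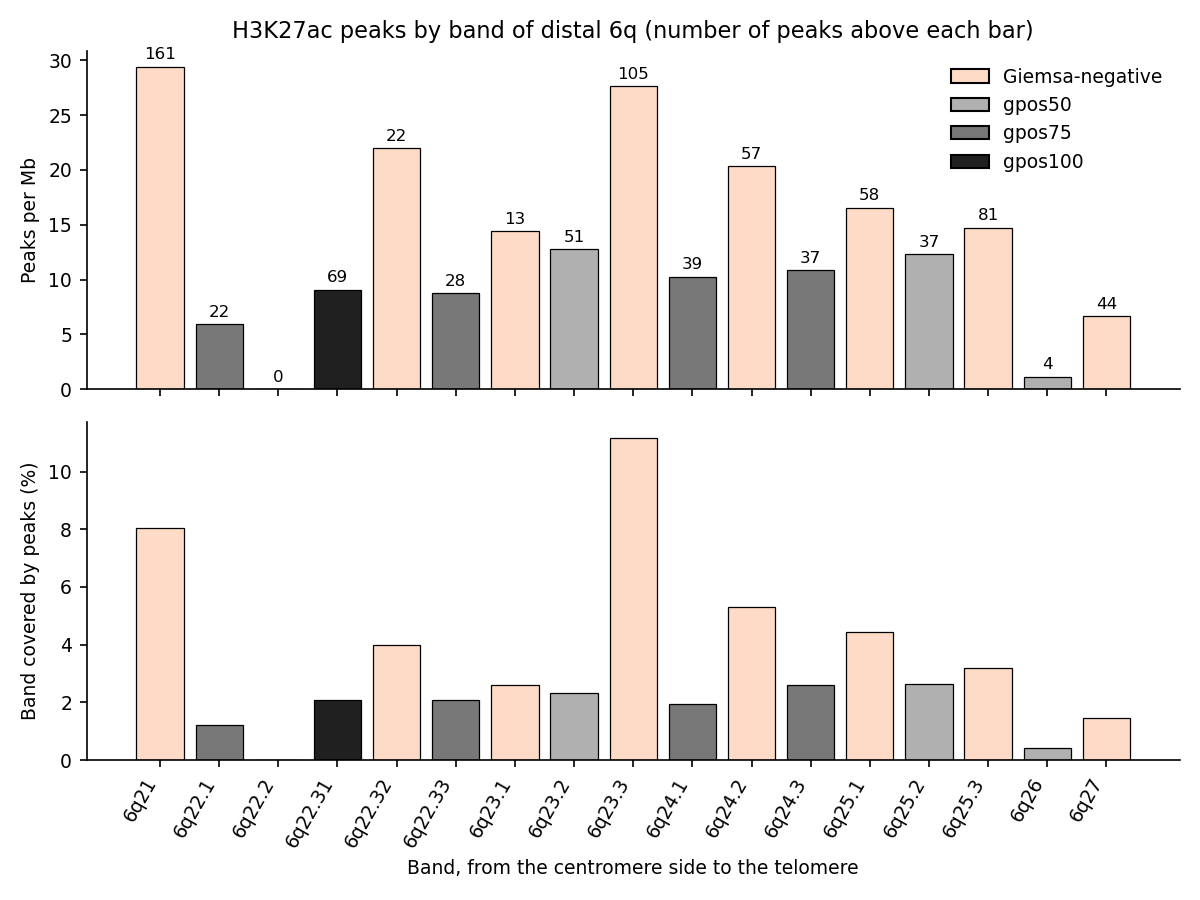
Peaks per Mb (top) and share of each band covered by peaks (bottom) for the 17 bands of distal 6q, coloured by Giemsa stain; 6q21 counts from the position on. The numbers above the bars are peaks, and the 2 tallest bars are 6q21 (29.4 per Mb) and 6q23.3 (27.6 per Mb).

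At a scale of 1 Mb the peaks were clustered. Of 61 windows, 7 had no peak, 12 had 20 or more and together held 45.7% of the peaks, and 14 windows sufficed for 50%. The window with the most peaks was the first, chr6:109124954-110124953, with 67. The next were chr6:135124954-136124953 in 6q23.3 with 50, the third and second Mb after the position, in 6q21, with 39 and 35, and chr6:143124954-144124953 in 6q24.2 with 26. The window in 6q23.3 had fewer peaks than the first but more covered sequence, 252 kb against 184 kb.

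The band 6q21 is cut by the position, which allows its 2 pieces to be set side by side. Before the position 6q21 held 96 peaks at 26.5 per Mb, and from it on 161 at 29.4 per Mb. The median width was 1688.5 bp (95% interval 1452 to 1957) before and 1707 bp (1382 to 2135) after, and the median fold was 2.92 on both sides. The level was 6.64 before and 4.62 after, and the implied pileup, the height of the ChIP signal worked out from fold and level, was 21.8 (17.8 to 28.9) before and 15.6 (13.6 to 18.1) after. Of these, width is the measure that the rule did not use, and its intervals overlapped. Width comes from the same peak call, though, and rises with fold, so it is not independent of the values the rule used. Fold, level and pileup are tied to the choice of the position, so nothing is read from them.

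Over the whole stretch, the median width of the 828 peaks was 1622 bp (1479 to 1759, quartiles 811 and 3171.5), and before the position it was 1632.5 bp (1534 to 1735). The narrowest peaks were 204 bp, the fragment length the caller used, and the widest was 50874 bp. The median fold was 3.16 (2.98 to 3.28) against 2.95 (2.87 to 3.02). The median pileup was 17.03 (15.72 to 17.92) against 22.08 (21.15 to 23.18) before the position, 22.26 in the other autosomes and 19.13 on chromosome X. Fold divides by the input level, so the same fold stands for a lower pileup where the level is low. Peaks of fold 6 to 10 had a median pileup of 45.7 in distal 6q, 46.4 on chromosome X and 69.5 on chromosome 6 before the position. At a fold of 10 or more these medians were 73.2, 69.5 and 106 in the same order. Pileup was computed from fold and level, so within a fold class it mainly restates the level. At a fold of 6 to 10 the median level was 5.32, 5.31 and 8.21 in the same order. Nothing further is read from these differences.

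**Figure D3:**
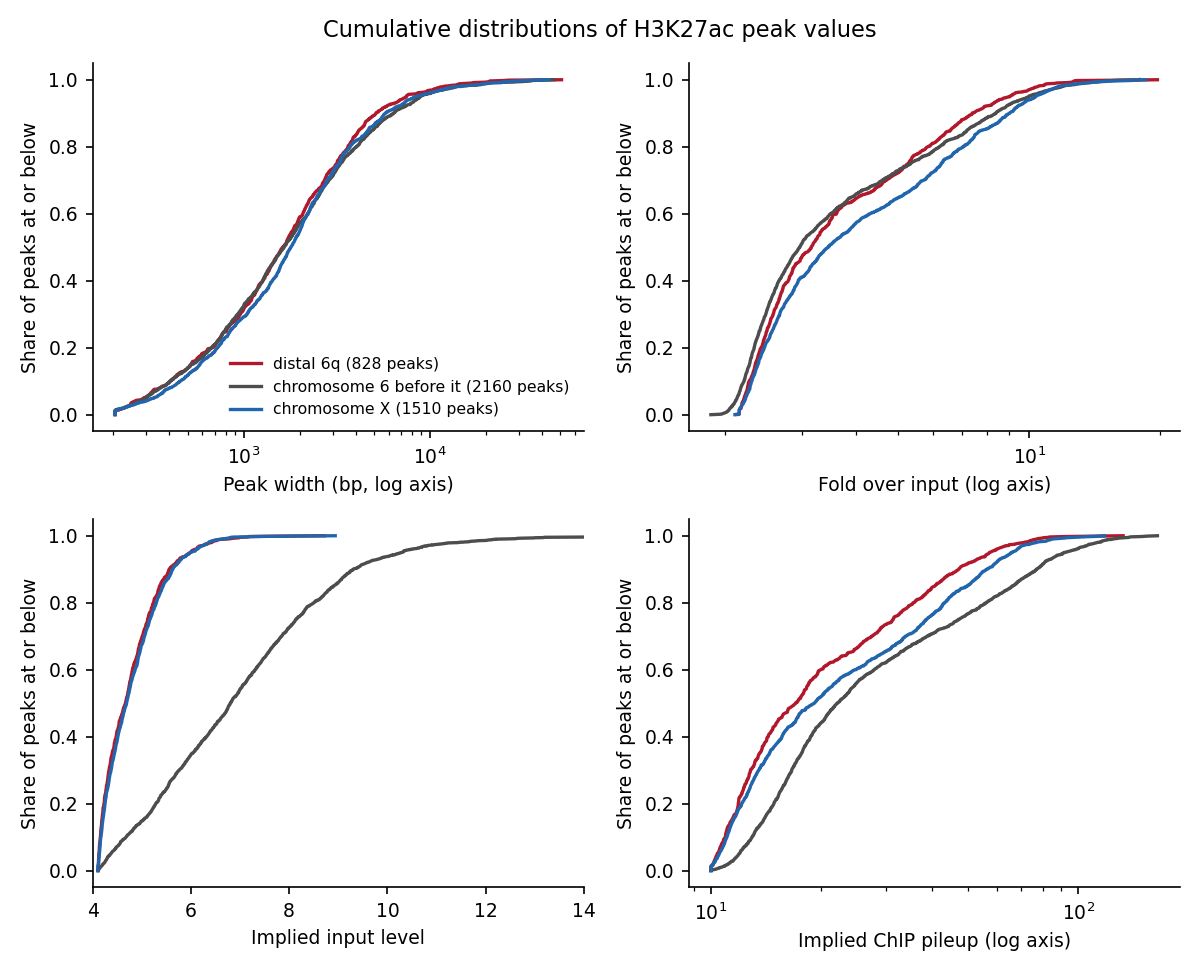
Cumulative shares of peaks by width, fold, implied input level and implied ChIP pileup, for distal 6q (red), chromosome 6 before it (grey) and chromosome X (blue), without peaks of a level above 20. Widths nearly coincide, levels of distal 6q and chromosome X lie together with medians of 4.67 and 4.69, and pileups of distal 6q lie lowest with a median of 17.0.

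Peaks past fixed heights and widths were counted next. A fold of at least 10 was reached by 25 peaks, 3.02% (95% Wilson interval 2.05 to 4.42), against 5.21% of all peaks and 4.88% before the position. The rule used fold, so nothing is read from this count. A pileup of at least the median of all peaks, 22.06, was reached by 306 peaks or 37.0%, against 49.8% of all peaks, and pileup too comes from the values the rule used. Counted at that height, distal 6q had 4.94 peaks per Mb, proximal 6q 5.26 and chromosome 6 before the position 9.91. The order of distal and proximal 6q was thus the reverse of that over all peaks. Peaks at least 10 kb wide numbered 26 or 3.14% (2.15 to 4.56), against 4.37% of all peaks, 1.63% in proximal 6q and 4.81% in 6p. The interval includes the share of all peaks.

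Among themselves the peaks ranged from weak and narrow to strong and broad. The 390 peaks of fold below 3 made up 47.1% of the peaks and 19.2% of the covered sequence, with a median width of 812 bp. Over all peaks of the genome these values were similar, at 48.2%, 18.3% and 836 bp. The 132 peaks of fold 6 to 10 made up 34.7% of the covered sequence with a median of 3854.5 bp (all peaks 36.3% and 3891 bp). The 25 of fold 10 or more made up 8.0% with 4785 bp (all peaks 13.7% and 4761 bp). Across the 828 peaks width and fold had a Spearman correlation of 0.765, and the value before the position was 0.739. All these peaks share 1 library pair, and a broad peak's fold is 1 summary over its length.

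The strongest peak was chr6:135498985-135519949 in 6q23.3, 20965 bp wide, with a fold of 19.7, a level of 5.78 and a pileup of 132. It ranked 12 of all 52203 peaks by fold and 227 by pileup. The second, chr6:110793012-110799854 in 6q21, had a fold of 16.7 and ranked 75 by fold and 1026 by pileup. After these 2 the fold dropped to 12.8, at chr6:109768493-109778081 in 6q21. The next 5 had folds of 12.2 to 12.7. They were chr6:146054632-146058247 in 6q24.3, chr6:157006912-157009117 in 6q25.3, the band of ARID1B, a chromatin remodelling subunit, chr6:139348395-139352939 in 6q24.1, the band of CITED2, a regulator of EP300-dependent transcription, chr6:111278199-111281668 in 6q21 and chr6:153301600-153306757 in 6q25.2. The last of the 10 were chr6:160181830-160184574 in 6q25.3 with a fold of 11.6 and chr6:109946899-109952452 in 6q21 with 11.4. The 10 strongest peaks thus lay in 6 bands, with more in 6q21 than in any other, and each ranked lower by pileup than by fold. Of the 522 peaks of highest fold in the genome 2 lay in distal 6q, and of the 522 of highest pileup 1. These are 0.242% and 0.121% of its peaks, against 1.00% of all peaks and 0.204% and 0.408% in proximal 6q. Both lists rest on values that the rule used, so nothing is read from these counts.

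Of the 10 widest peaks, 5 lay in 6q23.3, and 4 of these within the same stitched region. The widest, chr6:135421819-135472692, spanned 50874 bp, ranked 17 of all peaks by width and 5967 by fold, at 8.21. The next were chr6:135582709-135609101 (26393 bp, fold 8.36) and chr6:143245173-143269924 in 6q24.2 (24752 bp, fold 8.18). Then came the peak of highest fold, the sole peak on both lists, and chr6:138186455-138207327 (20873 bp, fold 10.9) in 6q23.3, the band of TNFAIP3. Peaks of 15485 to 20628 bp lay at chr6:129998889-130019516 in 6q22.33, chr6:135634448-135654191 in 6q23.3, chr6:150035720-150052784 in 6q25.1, chr6:111255305-111272209 and chr6:109212727-109228211 in 6q21. Of the 522 widest peaks in the genome 6 lay here, 0.725% of the peaks of distal 6q, against 1.00% of all peaks and 0.204% in proximal 6q.

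Peaks within 12.5 kb of each other were stitched, and the resulting regions were ranked over the whole genome by summed fold times width. Regions above the point where the rank curve turned steep were set apart as large domains, a cut also used for super-enhancers. Peaks near gene starts were kept, because no full hg19 annotation was used. The large domains can therefore hold promoters and are not called super-enhancers here. Distal 6q had 459 regions, of which 305 (66.4%) were a single peak, against 57.8% before the position and 70.1% in proximal 6q. Regions were assigned by their start, so 1 peak of distal 6q fell in a region counted before the position. Large domains numbered 12 or 2.61% of regions (95% Wilson interval 1.5 to 4.51), against 5.57% of all 25510 regions, 5.49% before the position (56 of 1020), 7.37% in 6p and 0.997% in proximal 6q (3 of 301). The ranking uses fold, which also chose the position, so nothing is read from this share. Ranked by summed pileup times width 8 regions or 1.74% were large, against 5.94% of all and 1.99% in proximal 6q. Ranked by width alone, which uses no fold, 17 or 3.70% were large, against 6.13% of all regions. Proximal 6q was close to distal 6q by this measure, at 3.32%. The large domains held 28.7% of the summed value of distal 6q, against 46.1% before the position and 9.02% in proximal 6q.

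The first domain stood far apart from the rest. It spanned 276 kb of 6q23.3, the band of MYB, HBS1L and AHI1, at chr6:135394153-135670464, held 26 peaks and alone made up 12% of the summed value and 8.47% of the covered sequence of distal 6q. It ranked 2 in the genome by fold times width, 7 by width and 12 by pileup, and the RefSeq gene order places HBS1L, MYB and AHI1 on the centromere side of BCLAF1 with PDE7B and MTFR2 between. Inside it 5 peaks wider than 10 kb, of fold 6.20 to 19.7, alternated with 21 peaks of 204 to 7258 bp and fold 2.18 to 3.90. The rank rested on the joining of these peaks: with stitching within 5 kb the highest-ranked region of distal 6q was chr6:135565196-135654191, at rank 91. With peaks of fold below 3 left out before stitching it was chr6:135405958-135483661, at rank 87, so the weak peaks between also held the domain together. With stitching within 20 kb it was chr6:135365318-135670464, at rank 5.

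The other 11 large domains ranked between 593 and 1345. In 6q21 were chr6:109212727-109293568 (12 peaks, 80.8 kb, rank 593), chr6:109328590-109424125 (17 peaks, rank 962) and chr6:111250796-111281668 (4 peaks, rank 1156). In 6q23.3 were chr6:138176860-138207327 (3 peaks, rank 629), chr6:138224436-138266553 (5 peaks, rank 1030) and chr6:135729834-135761228 (5 peaks, rank 1101). The first pair of these follow each other directly, apart by more than the stitching distance. The domain in 6q22.33, chr6:129962464-130035653, ranked 741 with 10 peaks over 73.2 kb. That in 6q24.2, chr6:143240022-143269924, ranked 807 and was in the main 1 broad peak, and chr6:150035720-150052784 in 6q25.1 was 1 peak of 17065 bp at rank 1069. The remaining pair lay in 6q25.1 and 6q27. Peaks covered 53.3%, 44.8% and 73.0% of the 3 domains in 6q21, in the order given, and 85.3%, 69.8% and 76.0% of these 3 in 6q23.3. The first domain was 65.1% covered, and that in 6q24.2 88.4%.

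**Figure D4:**
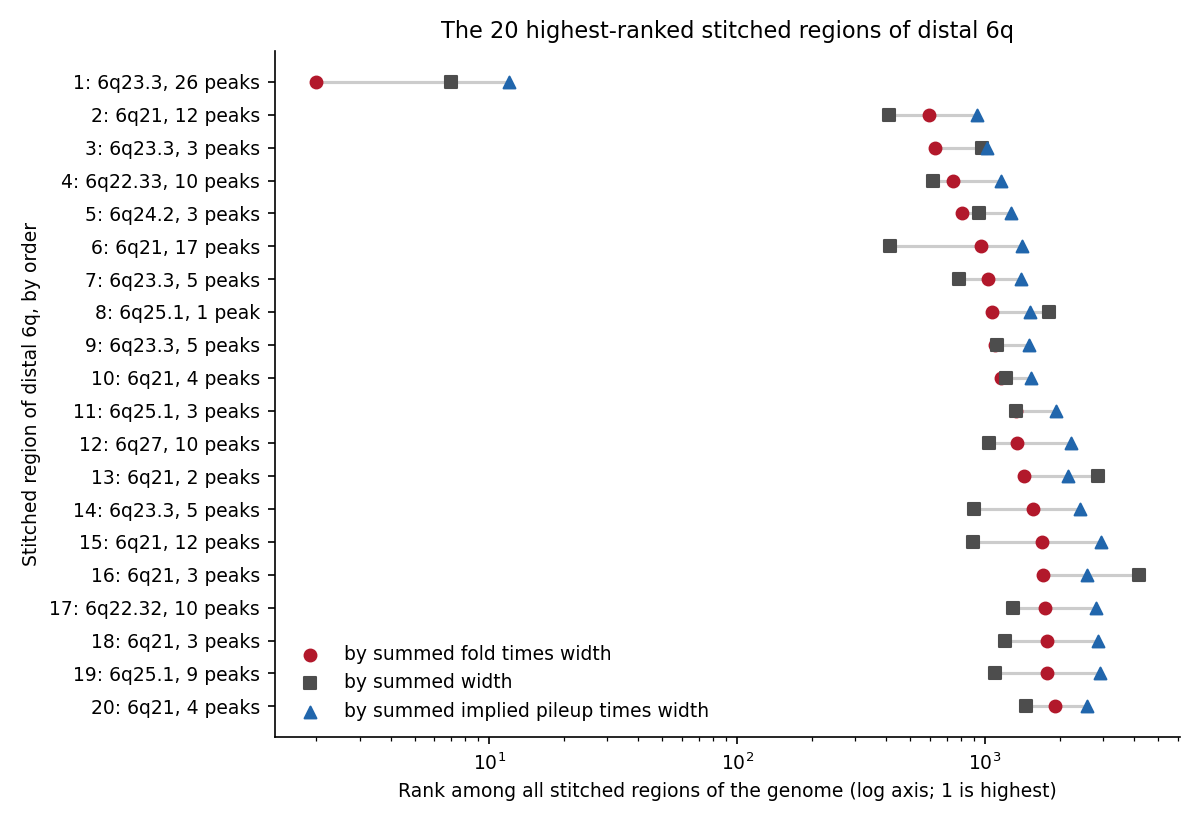
Genome-wide ranks (log axis) of the 20 highest stitched regions of distal 6q by summed fold times width (red circles), width (grey squares) and implied pileup times width (blue triangles). The region in 6q23.3 with 26 peaks ranks 2, 7 and 12, and every other region ranks 410 or further down by each measure.

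Long stretches of distal 6q carried no peak. The median gap between neighbouring peaks was 17.6 kb, against 10.5 kb before the position and 22.6 kb in proximal 6q. Peaks more than 50 kb from the next on both sides numbered 92 or 11.1%, against 7.53% of all peaks, 6.62% before the position and 15.9% in proximal 6q. The 7 gaps of 1 Mb or more took up 23.5% of the length. This share was 18.9% before the position, 27.1% in proximal 6q, 21.8% in the other autosomes and 37.4% on chromosome X. The longest, 4.15 Mb at chr6:162253485-166400726, ran from 6q26 into 6q27 and was the 18th longest between peaks in the genome. The next were 2.29 Mb at chr6:167764846-170054567 in 6q27, 2.13 Mb at chr6:114293813-116421726 from 6q21 into 6q22.1, 1.93 Mb at chr6:127837765-129766949 in 6q22.33, the band of THEMIS and PTPRK, and 1.45 Mb at chr6:120207364-121655192 in 6q22.31. These gaps are also stretches without a called peak at the caller's threshold, and weaker acetylation within them was not measured.

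The peaks beside the gaps were of unequal strength. The 4 peaks of 6q26 had folds of 3.53 to 6.95 and widths of 1545 to 5568 bp. Beyond the second gap, the 12 peaks from position 170054568 to the chromosome's end had folds of 2.59 to 9.02, and the highest, chr6:170150379-170153356, had a pileup of 52.7. The last peak of the chromosome, chr6:171025960-171026491, lay 88.6 kb from its end. On the centromere side of the third gap, chr6:114290242-114293812 had a fold of 10.4, so a strong peak stood at the edge of 2.13 Mb without one.

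Peaks were also counted per gene in place of length. From BCLAF1 to the end of 6q, 401 peaks faced 162 protein-coding genes of the RefSeq order, or 2.48 peaks per gene. The interval before it, from LINC01611 to BCLAF1, which holds the position, had 3.44 peaks per gene, and that from FBXO9 to LINC01611 in 6p and proximal 6q had 3.24. Intervals of 6p with 20 or more coding genes ranged widely, from 0.850 to 9.67 peaks per gene, and the values of 6q lay within this range.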

How the data were processed

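H3K27ac ChIP and input DNA of LOUCY were sequenced, 1 library each, single-end and without strand, per the labels' protocols. Bowtie2 and hg19 are named in the submitters' processing notes. Peaks were called by the authors with MACS 2.1.0.20140616 in broad mode, ChIP against input, with 1 tag kept per position, tags of 84 bp and a fragment length of 204 bp, per the file headers. Keeping 1 tag per position limits the height of the strongest peaks. Fold enrichment, as the authors deposited it, is the ratio of ChIP pileup to local control. The −log10 p-values, and the −log10 q-values beside them, are deposited as MACS gave them. A pileup column held values under 0 throughout (52203 rows), so heights were not taken from it.

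The implied input level was solved per peak, with 1 added to pileup and control, and pileup was derived from it. The level is approximate for broad peaks, and 200 peaks above 20, none in distal 6q, were left out of medians of level and pileup. Bands and lengths came from circlize 0.4.16. Gene positions came from a sample of 382 genes in pyranges 0.1.4, whose build is not labelled. Of their starts 53.1% lay within 1 kb of a peak, and 10.2% to 13.1% after shifts of 0.3 or 1 Mb. RefSeq (GRCh38.p14) gave gene order and 1 promoter, matched by symbol. Named were 10 peaks by fold, 10 by width, 10 domains by rank, the 5 longest gaps and the 5 fullest 1 Mb windows; other peaks and the remaining domains were named after their values were seen. Cell type markers were not in the gene sample within distal 6q. Intervals (95%; binomial for medians, Wilson for shares, Poisson for ratios) cover counting error only. The members and lists were chosen with earlier results of these data known. The calculation of levels and domains was tested on simulated data, with levels solved back from the same Poisson formula that made the p-values. This checks the arithmetic only, since neither the averaging over broad peaks nor the floor of the level was simulated. Alternatives were stricter q and fold thresholds, other comparison stretches, stitching distances and ranking values. Python 3.11.15 was used with scipy 1.17.1, pandas 2.3.3, numpy 2.4.6 and, for plots, matplotlib 3.10.9.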

Additional observations from a re-analysis of the deposited data

How the results depend on the processing

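Of 35 alternatives, all planned, 15 left their result within its interval or within 1.5 times its count, 19 moved it and 1 turned its direction. Peaks of distal 6q numbered 256 at a −log10 q of at least 10, 358 at 5 or more, 294 at a fold of at least 4 and 306 at the median pileup, since weak peaks were removed. The density ratio to chromosome 6 before the position was 0.595, 0.612 and 0.703 under the first 3 and 0.498 under the last. It was 0.484 against 6p alone and turned to 1.31 against proximal 6q alone. The thresholds were not among the alternatives for the ratio to proximal 6q. Under these 4 thresholds the median width was 3683.5, 3267, 3545.5 and 3523.5 bp. The median level was 5.24 at the stricter q, 5.19 at the fold of at least 4 and 6.47 with nothing added to pileup and control. The median pileup was 40.0, 38.1 and 20.8 in that order. Large domains numbered 7 of 224 regions (3.13%, against 5.34% of all) at a −log10 q of at least 10, where all peaks of lower q are left out before stitching, and 8 to 17 under the other 5 alternatives. At that q the first-ranked region of distal 6q was at rank 71. Gaps of 1 Mb or more went from 7 to 10 under both thresholds tried. No paired analysis was possible because each group is a lone library. Both libraries limit the values: differences between peaks or stretches have no replicate check, weak acetylation below the caller's threshold is not listed, and the level cannot fall below 4.11.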
